A study of Mus musculus with 36 samples.

Results

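The regions described here were the H3K9ac peaks that the authors' deposited table annotates as distal intergenic and gives a lower mean level in knockout than in wild-type cells. There were 985 of them among 1419 listed distal intergenic H3K9ac peaks, 8115 listed H3K9ac peaks and 13958 listed peaks of the 3 histone marks studied. Membership was decided by the sign of the knockout minus wild-type difference, so the direction and size of that difference are a description of what was selected and are not tested. The cells were primary aortic smooth muscle cells from C57BL/6N mice (wild type, labelled CSE WT) or from mice with a whole-body knockout of CSE. CSE, cystathionine gamma-lyase, is an enzyme that produces hydrogen sulfide. Cells of both genotypes received 1 µM angiotensin II, a vasoconstrictor peptide, for 24 h, so the comparison has no untreated arm. Chromatin immunoprecipitation with sequencing (ChIP-seq) gave 36 libraries in 12 groups of 3, of which 6 were H3K9ac immunoprecipitates, 3 per genotype. The labels do not say whether libraries came from separate animals or cultures, or how many mice were pooled.

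Acetylation of histone H3 at lysine 9 is laid down by acetyltransferases, removed by deacetylases, and found at active promoters and enhancers. Distal peaks of the mark commonly lie at enhancers, which act on genes over a distance, and at start sites of long noncoding RNAs. Enhancers are among the most cell-type-specific parts of chromatin, and in smooth muscle cells they serve contractile, matrix and growth-response genes.

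The deposited values are log2 mean normalised reads per peak for each genotype, called levels here, together with the log2 fold change between genotypes, its p-value and its false discovery rate (FDR). Values per library were not analysed here, so no spread between replicates could be computed and the depth of each library is unknown. The table lists selected peaks with p from 0.000101 to 0.0499, so counts describe how listed peaks split and not how many of all peaks differed. Intervals below are 95% exact binomial intervals or order-statistic intervals of a median. They treat peaks as separate draws, which neighbouring peaks are not.

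A few of the regions overlapped annotated start sites, and sequences of some of these windows are shown as examples. RefSeq promoter windows of 300 bases on GRCm38.p6, from 250 before to 50 after a start, overlapped 23 of the 969 regions on chromosomes whose promoters were searched (2.37%, interval 1.51 to 3.54). Of the 393 such distal peaks higher in knockout, 4 did (1.02%, interval 0.278 to 2.59). The 23 regions held 25 windows, 22 of them whole, 7 were in regions with an FDR under 0.05 (as were 16.3% of all listed lower H3K9ac peaks), and 23 belonged to long noncoding RNA genes. The first 5 windows printed lay wholly inside a region that the authors' deposited table gives an FDR below 0.05, and the last 2 lay in the region with the highest wild-type level. These windows were chosen after their values were seen. Capitals mark matches to any of 13 motifs on either strand, and no 2 matches overlapped in these windows.

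Gm33189 (chr3:142434284-142434583, plus strand): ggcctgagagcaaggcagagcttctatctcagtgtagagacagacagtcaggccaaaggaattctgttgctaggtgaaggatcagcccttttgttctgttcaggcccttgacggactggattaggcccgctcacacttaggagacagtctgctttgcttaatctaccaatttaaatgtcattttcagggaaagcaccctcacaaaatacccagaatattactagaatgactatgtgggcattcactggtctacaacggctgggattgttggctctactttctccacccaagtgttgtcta
Gm38588 (chr7:98481015-98481314, plus strand): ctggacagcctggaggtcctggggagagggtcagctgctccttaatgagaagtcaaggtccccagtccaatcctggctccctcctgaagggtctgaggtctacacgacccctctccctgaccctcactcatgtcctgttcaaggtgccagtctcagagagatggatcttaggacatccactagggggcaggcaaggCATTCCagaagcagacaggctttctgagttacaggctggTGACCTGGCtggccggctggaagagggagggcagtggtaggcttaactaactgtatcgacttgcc
Gm51458 (chr7:127636864-127637163, plus strand): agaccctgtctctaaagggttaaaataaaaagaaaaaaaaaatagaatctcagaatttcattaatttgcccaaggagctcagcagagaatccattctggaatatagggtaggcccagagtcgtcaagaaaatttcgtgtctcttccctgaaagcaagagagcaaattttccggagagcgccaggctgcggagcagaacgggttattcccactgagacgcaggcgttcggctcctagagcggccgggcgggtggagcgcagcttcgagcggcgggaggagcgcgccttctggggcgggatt
Gm34489 (chr12:12420791-12421090, plus strand): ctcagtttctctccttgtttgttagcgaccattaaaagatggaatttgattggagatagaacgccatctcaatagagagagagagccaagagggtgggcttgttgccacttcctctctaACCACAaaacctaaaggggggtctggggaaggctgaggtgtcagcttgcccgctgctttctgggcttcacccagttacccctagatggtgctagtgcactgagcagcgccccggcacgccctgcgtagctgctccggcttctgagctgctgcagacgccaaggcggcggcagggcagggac
Gm41309 (chr15:38602237-38602536, minus strand): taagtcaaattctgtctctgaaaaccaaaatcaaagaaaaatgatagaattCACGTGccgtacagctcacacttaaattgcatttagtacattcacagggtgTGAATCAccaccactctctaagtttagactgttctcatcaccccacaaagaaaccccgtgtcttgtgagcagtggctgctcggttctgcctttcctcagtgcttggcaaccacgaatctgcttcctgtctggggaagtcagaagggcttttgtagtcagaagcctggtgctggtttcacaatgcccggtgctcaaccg
Gm32328 (chr6:51166397-51166696, minus strand): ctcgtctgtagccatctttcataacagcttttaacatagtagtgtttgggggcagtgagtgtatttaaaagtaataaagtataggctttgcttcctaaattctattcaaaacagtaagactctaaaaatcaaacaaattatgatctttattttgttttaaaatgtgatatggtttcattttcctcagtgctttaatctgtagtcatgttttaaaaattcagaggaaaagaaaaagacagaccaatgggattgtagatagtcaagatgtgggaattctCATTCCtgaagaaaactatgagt
Gm52901 (chr6:51163883-51164182, plus strand): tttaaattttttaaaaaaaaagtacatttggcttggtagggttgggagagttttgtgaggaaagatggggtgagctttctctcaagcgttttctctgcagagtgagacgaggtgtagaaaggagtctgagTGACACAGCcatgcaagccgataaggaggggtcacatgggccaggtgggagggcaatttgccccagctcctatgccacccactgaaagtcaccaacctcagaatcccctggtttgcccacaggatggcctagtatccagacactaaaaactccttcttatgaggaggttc

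The capitals are a TEAD-type GGAATG and an antioxidant-type TGACNNNGC in Gm38588, a RUNX-type TGTGGT in Gm34489, and CACGTG and an AP-1-type TGANTCA in Gm41309. In Gm32328 they are GGAATG and in Gm52901 TGACNNNGC. The matches in Gm34489, Gm32328 and the GGAATG of Gm38588 are read on the opposite strand, so the capitals are reverse complements. Gm33189 and Gm51458 held none of the 13. Over the 25 windows, TGTGGT occurred in 5 (20%), against 16.8% of all 32851 RefSeq windows. GGAATG occurred in 3 (12%, against 14.7% of all windows), TGACNNNGC in 3 (against 12.4%), TGANTCA in 2 (8.0%, against 7.81%), CACGTG in 1 (4.0%, against 7.15%) and the GATA-type AGATAA in 1 (against 11.2%). In the same order the shares of long noncoding RNA windows were 16.6%, 11.3%, 9.31%, 5.89% and 14.0%. The other 7 motifs, CCGGAAG (ETS), the NF1, glucocorticoid receptor and NF-kB elements, the SMAD palindrome, the CArG box and the MEF2 box, had no match in these windows, and 0.0365% to 8.86% of all windows held each of them. Of long noncoding RNA windows, 0.0431% to 3.89% held each of these 7. Each count is small, and a match in letters is a description and not a binding site.

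The windows were mostly poor in CpG. CpG dinucleotides numbered 1 to 19 per window with a median of 4, equal to the median of 4 over all long noncoding RNA windows and below the 13 of protein-coding ones. Gm51458 had 19, the most of the 25. GC content ranged from 29.3% to 59.7% with a median of 50.7%, beside 48.3% for long noncoding RNA windows and 56.3% for protein-coding windows.

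The region over Gm33189, chr3:142434212-142434584, had in the authors' deposited table a level of 4.36 in wild type and -0.19 in knockout. The value -0.19 is the lowest knockout level in the table, so its log2 fold change of -4.55 (FDR 0.00736, the authors' deposited table) depends on how that floor was set. The authors give Pdlim5 as its nearest gene, 38.5 kb away. Pdlim5 encodes a PDZ and LIM domain protein of the actin cytoskeleton. The region over Gm38588 had levels of 6.75 and 5.57 (FDR 0.00966, the authors' deposited table) and is annotated to Lrrc32, which encodes a surface protein that holds latent TGF-beta. The region over Gm51458 had levels of 7.2 and 6.13 (FDR 0.0148) in the authors' deposited table.

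The highest levels of all 985 regions lay at a locus annotated to Mir148a, the gene of microRNA miR-148a. The authors' deposited table gives 3 regions there, at chr6:51162047-51167646, chr6:51167852-51175032 and chr6:51206283-51208575. They lay 102, 94.9 and 61.3 kb from the start of Mir148a, and the nearest RefSeq protein-coding gene was the predicted gene Gm38821. The first pair were 5.60 and 7.18 kb wide and only 205 bp apart. In the authors' deposited table their levels were 10.91 in wild type and 10.10 in knockout for the first, and 10.89 and 9.98 for the second. The third had levels of 8.24 and 7.36 in the authors' deposited table. Their FDRs in the authors' deposited table were 0.257, 0.149 and 0.117, so none reached 0.05. Divided by width, the first still ranked 2 of 985 in wild-type reads per kb (344), the second 6 and the third 91. The second region also covered 2 listed H3K4me3 peaks, chr6:51171539-51172928 and chr6:51173201-51174553. H3K4me3 is a mark of active start sites, and its table gives no direction.

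The mature miR-148a strands on chromosome 6 are shown because 3 regions are annotated to their gene, although none of the 3 overlaps it. The others belong to microRNA genes nearest a region that the authors' deposited table gives an FDR below 0.05. Capitals mark the seed, bases 2 to 8.

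miR-148a-3p (chr6:51269829-51269850, minus strand): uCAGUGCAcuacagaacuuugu
miR-148a-5p (chr6:51269867-51269888, minus strand): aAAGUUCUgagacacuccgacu
miR-147-5p (chr2:122640814-122640837, plus strand): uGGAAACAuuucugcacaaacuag
miR-3076-3p (chr14:30572185-30572207, plus strand): cGCACUCUggucuucccuugcag
miR-6420 (chr17:64440863-64440883, plus strand): aCUAAUCCuauaaaaucaaac

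None of the 21 mature sequences matched by name shared a seed with another of them. The seed of miR-148a-3p is also that of miR-148b-3p and miR-152-3p in the RefSeq table. In all, 25 regions (2.54%) were annotated to 22 microRNA genes, of which 13 matched RefSeq by symbol, and 5 of the 25 were called at an FDR under 0.05, beside 16.3% of all listed lower H3K9ac peaks. The Mir6420 region, 32.4 kb from that gene, had levels of 6.56 and 5.13 (FDR 0.00753) in the authors' deposited table. The Mir147 region had levels of 6.03 and 4.17 (FDR 0.0227), and the Mir3076 region 6.49 and 5.23 (FDR 0.0441), in the authors' deposited table. The nearest gene is a matter of position alone: the protein-coding genes nearest these 3 regions were Pja2, AA467197 and Tkt.

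Levels of the 985 regions ranged widely. The median wild-type level was 5.92 (interval 5.85 to 5.99, range 3.55 to 10.91), or 60.5 normalised reads, and the median knockout level 4.78 (interval 4.66 to 4.91), or 27.5 reads. The median fold was 2.17 (interval 2.11 to 2.22, range 1.47 to 23.4), and 609 regions (61.8%) were at least 2-fold lower, beside 63.7% of all listed lower H3K9ac peaks. An FDR under 0.05 was reached by 190 of the 985 (19.3%, interval 16.9 to 21.9). Of the 6265 listed lower H3K9ac peaks of any class 16.3% reached it. Of all 8115 listed peaks 12.6% were lower and called, and 16.6% were called in either direction. The contrast was used by the rule, so nothing is read from these shares. For 3 regions, annotated to Pdlim5, Wdr38 and Gm15068, the knockout level was the table's lowest value.

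**Figure D1:**
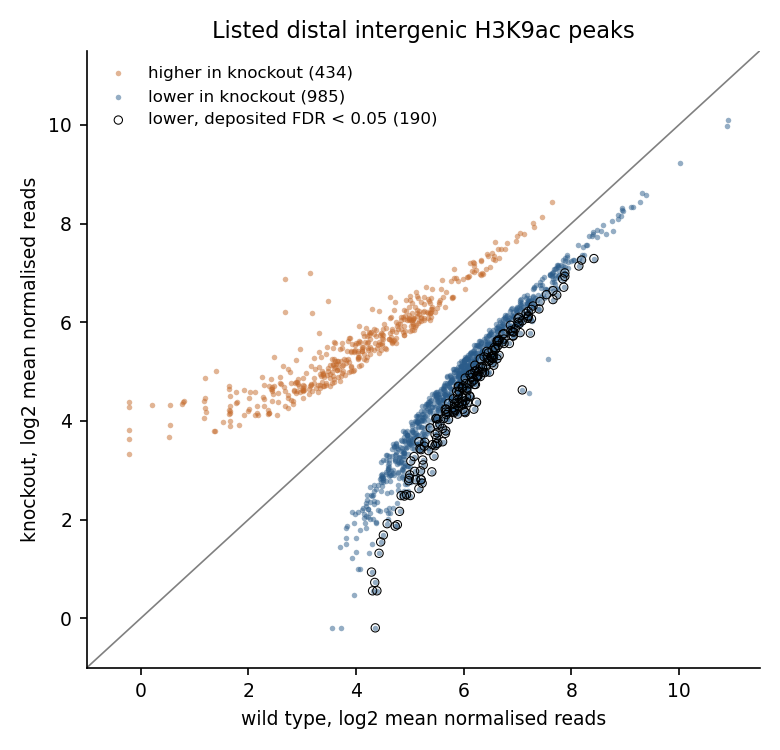
Levels of the 1419 listed distal intergenic H3K9ac peaks in wild type (x axis) and knockout (y axis), both in log2 mean normalised reads; blue points are the 985 lower in knockout, orange points the 434 higher, open circles the 190 lower peaks with a deposited FDR under 0.05, and the grey line marks equal levels. No peak lies on the line, and the blue points reach 10.91 in wild type and 10.10 in knockout, further than the orange ones on either axis.

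The values just inside and outside the rule's limit leave a gap, since the table lists no small difference. Just inside were regions annotated to 4930445N18Rik and Eif4b (log2 fold change -0.56 for both), Gm45011 (-0.57), Gpx6 and Fos (-0.58 for both), in the authors' deposited table. Just outside were Gm23056 (0.61), Fstl1 (0.62), Rbp7 (0.63), and Gm43334 and Gm32914 (0.64 for both), in the authors' deposited table.

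Among listed distal intergenic peaks 69.4% were lower in knockout (interval 66.9 to 71.8), compared with 77.2% of all listed H3K9ac peaks. The shares in other classes were 74.5% for introns, 79.3% for promoters and 92.5% for 3' UTRs. The share was larger at higher mean levels over all libraries: 53.8% of peaks under 4, 63.3% from 4 to 5, 69.9% from 5 to 6, 80.7% from 6 to 7 and 86.7% at 7 or more. The median fold of the lower peaks went the other way over the same bins, 4.08, 2.73, 2.07, 1.84 and 1.68. Because listing depends on p, which can depend on level, a preference by level and the selection of listed peaks cannot be told apart. By distance the share was 67.0% at 3 to 5 kb, 75.7% at 20 to 50 kb and 60.0% (15 of 25 peaks) at 100 kb or more.

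**Figure D2:**
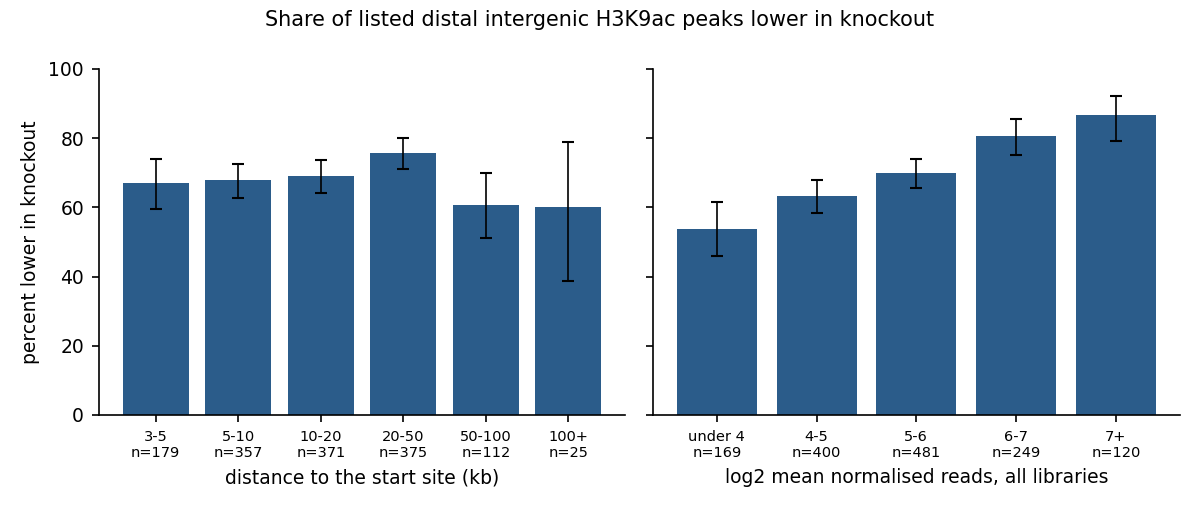
Percent of listed distal intergenic H3K9ac peaks lower in knockout, by distance to the start site in kb (left) and by log2 mean normalised reads over all libraries (right); bars start at 0, error bars are 95% exact binomial intervals and n is the number of peaks. The share is 53.8% in the lowest and 86.7% in the highest level bin, while the intervals of most distance bins overlap.

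The 985 regions had a median width of 716 bp (interval 679 to 742), and the 434 higher peaks 568 bp (interval 538 to 601). Their median distance to the annotated start was 14.4 kb (interval 13.5 to 15.5, range 3.00 to 235), beside 12.4 kb (interval 10.9 to 13.7) for higher peaks. Upstream of the start lay 551 (55.9%), and 83 (8.43%) were 50 kb or more away, beside 12.4% of higher peaks. The annotated gene was protein-coding for 472 (47.9%), a lincRNA for 160 (16.2%) and a processed pseudogene for 158 (16%). Only 410 (41.6%) were annotated to the nearest RefSeq protein-coding gene, so most gene names beside a region are labels of position. Although annotated as distal intergenic, 23 (2.34%) overlapped the RefSeq span of a protein-coding gene, beside 2.07% of higher peaks.

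Apart from regions annotated to predicted genes named by a number, 3 of which had p-values as small, the smallest p-values belonged to regions near genes of varied function. The 3 were Gm37491, Gm5829 and Gm44515, nearest the coding genes Lyplal1, Fn1 and Fam155a, with FDRs of 0.00686, 0.00703 and 0.00747 in the authors' deposited table. In the authors' deposited table the region chr14:101379149-101380052, nearest the pseudogene Hspd1-ps5 and the coding gene Tbc1d4, had levels of 6.07 and 4.37 (FDR 0.00627). The Trim27 region had levels of 5.41 and 2.97 (FDR 0.00647), and the Slc10a1 region 4.39 and 0.56 (FDR 0.00659), in the authors' deposited table. Trim27 encodes a ubiquitin ligase and Slc10a1 a bile acid transporter. The regions of Mettl22, Ecrg4, Gtf3a, Hemk1 and Trim8 followed, with log2 fold changes from -2.31 to -1.13 and FDRs from 0.00703 to 0.00841 in the authors' deposited table. Capg encodes an actin-capping protein. Its region, inside the RefSeq span of the coding gene Sh2d6, had levels of 6.39 and 4.98 (FDR 0.00741) in the authors' deposited table. Both listed Capg promoter peaks were lower too in the authors' deposited table, with FDRs of 0.107 and 0.0626.

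Among regions with measurable knockout signal, and leaving out 11 at predicted genes named by a number, the largest folds also lay near genes of varied function. Fgfr2, a fibroblast growth factor receptor, had a region at chr7:130143865-130144203 with levels of 5.01 and 2.49 (FDR 0.0086) in the authors' deposited table. Sardhos (5.23 and 2.74, FDR 0.00967), Zfp932 (4.94 and 2.51, FDR 0.02) and Cd9, which encodes a tetraspanin (4.84 and 2.49, FDR 0.0291), had similar differences in the authors' deposited table. The region of 4930471G24Rik lay 109 kb from that gene's start, and the nearest coding gene, Id4, was 483 kb away. That region had levels of 7.09 and 4.63 (FDR 0.0469) in the authors' deposited table. The regions of 2210420H20Rik, Pbk, Tom1l1 and Klk14 had folds as large, with log2 fold changes from -2.60 to -2.37, but FDRs of 0.0539 to 0.0773 in the authors' deposited table. The coding genes nearest the Sardhos and Pbk regions were Dbh and Scara5.

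Matrix genes of the list of 45 had 4 regions, 2 with an FDR under 0.05, and 2 higher distal peaks by the authors' annotation. By nearest protein-coding gene they had 10 regions, 3 called, and 4 higher peaks. Beside these small counts, 19.3% of the 985 regions and 16.3% of all listed lower peaks were called. Col5a1, a chain of fibrillar collagen V, had 3 of them, at 67.3, 43.1 and 21.1 kb from its start. In the authors' deposited table the middle one, chr2:27843068-27843364, had levels of 4.81 and 2.17 (FDR 0.0197). The nearest to the start had levels of 7.4 and 6.27 (FDR 0.0261), and the farthest 6.89 and 6.15 (FDR 0.21), in the authors' deposited table. The gene nearest the farthest one is Rxra, a retinoid receptor, which itself had 3 regions with FDRs from 0.0714 to 0.136 in the authors' deposited table. Fbln2, an elastic-fibre fibulin, had a region with levels of 4.89 and 3.35 (FDR 0.125), and all 5 of its listed promoter peaks were lower in the authors' deposited table. Higher distal peaks were annotated to Col1a2 and Lum, with levels of 2.44 and 4.65 and of 4.90 and 5.92 in the authors' deposited table.

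Positional and mesenchymal transcription factors, a list of 113 genes, had 5 regions and no higher distal peak by the authors' annotation. Bnc1, a zinc finger factor, had levels of 7.05 and 5.79 (FDR 0.0149) in the authors' deposited table. Osr1, a factor of mesenchymal development, had levels of 8.19 and 7.26 (FDR 0.0246) in the authors' deposited table. The regions of Barx1, Twist1 and Nfix did not reach an FDR of 0.05. By nearest protein-coding gene the same list had 15 regions, 3 with an FDR under 0.05, and 5 higher peaks, 2 of them called. The absence of higher peaks therefore depends on which gene a peak is given. For comparison, 19.3% of the 985 regions and 16.3% of all listed lower H3K9ac peaks were called.

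Contractile smooth muscle genes, a list of 30, had 3 regions by the authors' annotation, none with an FDR under 0.05. By nearest protein-coding gene they had 5 regions, 0 called, and 1 higher peak. For comparison, 19.3% of the 985 regions and 16.3% of all listed lower peaks were called. Tpm1, a tropomyosin, had levels of 5.24 and 4.07 (FDR 0.213), Csrp1, a LIM protein, 5.79 and 4.85 (FDR 0.22), and Des, desmin, 5.73 and 4.70 (FDR 0.264), in the authors' deposited table. Acta2, smooth muscle actin, had a higher distal peak, 4.46 and 5.43 (FDR 0.286), in the authors' deposited table. Of the 30 contractile genes 16 had a listed H3K9ac peak of any class, beside 2 of 15 endothelial, 2 of 15 leukocyte, 4 of 12 fibroblast and 1 of 12 neural marker genes. Listing requires a difference between genotypes, so these counts do not measure which cell types were present. By the authors' annotation no endothelial, leukocyte, fibroblast or neural marker had a region of the 985. By nearest protein-coding gene the endothelial marker Cdh5 had 2, 72.9 and 50.2 kb away, with FDRs of 0.0148 and 0.128 in the authors' deposited table, and the other 3 marker lists had none. The adipocyte marker Lep had 2, with FDRs of 0.144 and 0.169 in the authors' deposited table.

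AP-1, KLF, TEAD and immediate early factors, a list of 36, had 5 regions by the authors' annotation, none called, and 4 higher distal peaks. Fos, a subunit of AP-1, had 4 of the 5, with levels of 8.32 and 7.74, 4.91 and 3.57, 6.03 and 5.25, and 5.23 and 3.76 in the authors' deposited table. Their FDRs ran from 0.141 to 0.324 in the authors' deposited table, so none was called. The higher peaks belonged to Klf2, Egr1, Nr4a2 and Klf4, with FDRs from 0.0522 to 0.23 in the authors' deposited table. By nearest protein-coding gene the list had 10 regions, 2 called, and 8 higher peaks, none called. The 2 called lay nearest Klf10 and Klf6, 72.9 and 233 kb away, with FDRs of 0.011 and 0.0127 in the authors' deposited table. Beside these counts, 19.3% of all 985 regions were called. Dusp4, a phosphatase of MAP kinases, also had 4 regions. Of these only chr8:34752710-34752946, with levels of 4.31 and 0.56, had a called difference (FDR 0.0108) in the authors' deposited table. The Dusp4 promoter peak had levels of 11.71 and 10.77 (FDR 0.23) in the authors' deposited table.

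By the authors' annotation adhesion genes, a list of 39, had 4 regions, 1 called, and 1 higher distal peak. That higher peak, at Lamc1, had levels of 3.44 and 5.35 (FDR 0.0819) in the authors' deposited table. By nearest protein-coding gene the list had 7 regions, 2 called, and 2 higher peaks, 1 called. Of all 985 regions 19.3% were called. Tns1, a tensin that links integrins to actin, had levels of 6.62 and 5.62 (FDR 0.0306) in the authors' deposited table, and its 10 listed promoter peaks were all lower. Actn1 had 5 listed promoter peaks, 4 lower and 1 higher. Vcl, vinculin, had levels of 5.67 and 4.35 (FDR 0.142), and Actn1, an alpha-actinin, had 2 regions with FDRs of 0.234 and 0.272 in the authors' deposited table. Inflammation genes had 3 regions (Cd44, Il6st, Nfkbia) by the authors' annotation, none with an FDR under 0.05, and 4 higher peaks (Cxcl1, Socs3 and Nfkbia, with 2 at Cxcl1). The coding gene nearest that Nfkbia region was Psma6. By nearest protein-coding gene the inflammation list had 7 regions, 0 called, and 9 higher peaks, 1 called.

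Hdac4, a deacetylase that acts in muscle gene repression, Pde4d, a cAMP phosphodiesterase, and Plxnd1, a semaphorin receptor, each had 1 region, with FDRs of 0.119, 0.201 and 0.324 in the authors' deposited table. The list of Plxnd1, actin remodelling and guidance, had a higher peak at Ankrd1 (4.22 and 5.61, FDR 0.0591) in the authors' deposited table. By nearest protein-coding gene that list had 2 regions, 0 called, and 4 higher peaks, 2 called. The 2 called lay 70.2 kb from Rock1 and 89.0 kb from Sema3d. By the same assignment the lists of Hdac4 (chromatin enzymes) and Pde4d (vasoactive signalling) had 6 regions each, 0 and 1 called, and no higher peak. For comparison, 19.3% of the 985 regions and 17.1% of the 434 higher distal peaks were called.

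Over all 20 lists, 31 regions at 24 genes belonged to a list, 6 with an FDR under 0.05, and 17 higher peaks did, so 64.6% of list peaks were lower. By nearest protein-coding gene there were 89 regions at 61 genes, 18 with an FDR under 0.05, and 42 higher peaks, or 67.9% lower. Both shares are near the 69.4% of all listed distal intergenic peaks, and the called shares of 19.4% and 20.2% are near the 19.3% of all 985 regions. Genes of TGF-beta signalling, Wnt and Notch, oxidative stress, and hydrogen sulfide metabolism had none of the 985 by the authors' annotation. The first 3 of these lists each had 1 higher distal peak by that annotation, at Fstl1, Wnt7b and Txnrd1. By nearest protein-coding gene the TGF-beta list had 6, of which 3 were called. These 3 lay 316 kb from Bmp4, 67.1 kb from Smad2 and 7.9 kb from Tgfbi. The Wnt and Notch list had 3 (1 called, 241 kb from Jag1), the oxidative stress list 2 (1 called, nearest Egln3) and the hydrogen sulfide list none. By the same assignment higher peaks numbered 3 (1 called, 233 kb from Smad2) in the TGF-beta list, 1 in Wnt and Notch and 1 in oxidative stress. Wnt10a, a Wnt ligand outside the Wnt and Notch list, had 3 regions. The one at chr1:74808307-74808877 had levels of 6.25 and 5.03 (FDR 0.0237) in the authors' deposited table.

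**Figure D3:**
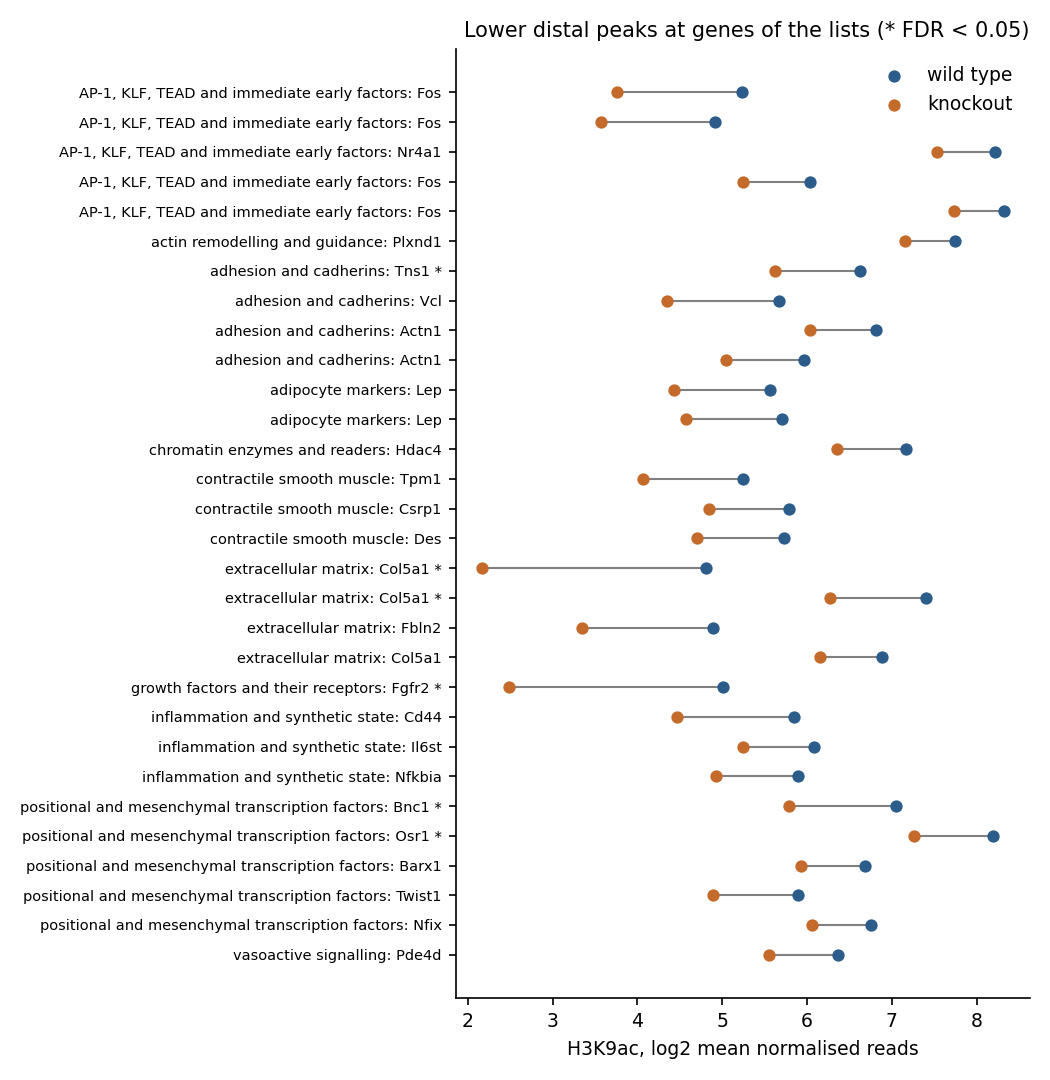
Levels in log2 mean normalised reads (x axis) of 30 of the 31 lower distal regions annotated to genes of the lists, 1 line per region named by list and gene (y axis); blue points are wild type, orange points knockout, and a star marks a deposited FDR under 0.05. The longest lines are those of Col5a1 and Fgfr2, and 6 of the 30 carry a star.

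Some regions lay side by side. Joined where little DNA separated them (the widest gap inside a run was 11.8 kb), 161 of the 985 (16.3%) formed 74 runs, 62 of 2 regions, 11 of 3 and 1 of 4, beside 14.3% of higher peaks. Of 108 runs of distal peaks of either direction, 73 were all lower, 28 all higher and 7 mixed. The run of 4 spanned 11.3 kb at chr15:83205304-83216579 near A4galt, which encodes a glycosyltransferase, with wild-type levels from 5.53 to 6.87 and knockout levels from 4.23 to 5.94 in the authors' deposited table. Of its 4 regions 1 was called (FDR 0.0424), and the authors' deposited table gives the A4galt promoter peak levels of 9.08 and 8.20 (FDR 0.263). A run of 3 beside Cish, a suppressor of cytokine signalling, reached an FDR of 0.00833 at Hemk1 and 0.0303 at Gm17041, and both listed Cish promoter peaks were lower, in the authors' deposited table. In the Gpx5 locus, named for a glutathione peroxidase, 2 of 3 regions formed a run and the other lay apart. Their FDRs were 0.014, 0.0562 and 0.125 in the authors' deposited table. At Tmem179 the 3 had FDRs from 0.0845 to 0.186 in the authors' deposited table. Further runs of 3 had Tpra1, Psma6 or Cbx5 as the nearest coding gene, and another was annotated to the noncoding gene 4930572O13Rik, 81.9 to 89.1 kb from its start. In that last run 1 region was called (FDR 0.0304, the authors' deposited table).

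For 867 regions (88.0%) the annotated gene had no listed H3K9ac promoter peak, and for 118 (12%) it had. For 103 of the 118 (87.3%, interval 79.9 to 92.7) all such peaks were lower, for 13 all were higher, and 2 had both. Over all 3053 genes with a listed promoter peak, 77.3% had only lower ones. For higher distal peaks, 40 had one and 18 of these (45.0%, interval 29.3 to 61.5) had only lower promoter peaks. The nearest listed peak of another class within 50 kb was lower for 300 of 341 regions (88.0%, interval 84.0 to 91.2) and for 72 of 148 higher peaks (48.6%, interval 40.4 to 57.0). Of all listed peaks outside the distal class 78.9% were lower. These shares come from the same libraries as the rule and were not tested.

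The split by direction was uneven over chromosomes and, with no value per library, was not tested. The share of listed distal intergenic peaks that were lower was 92.0% on X (23 of 25), 90.8% on 7 and 85.4% on 3, but 37.9% on 4, 36.0% on 11 and 28.1% on 18. Promoter peaks ran from 38.3% on 4 to 93.9% on 10, with 48.8% on 18 and 92.3% on X. Chromosome 1 held the most regions, 104 (10.6%). In 122 bins of 10 Mb with at least 5 distal and 5 promoter peaks, the distal and promoter shares had Pearson's r of 0.57 and Spearman's rho of 0.45. Without chromosomes 4 and 18 these were 0.48 and 0.38 over 114 bins. Chromosomes 11, 16 and 19 stayed in, and their distal shares were also low, at 36.0%, 40.8% and 48.6%. The points share all libraries and their normalisation, so this is a description. In the 23 bins where every distal peak was lower the median promoter share was 86.4%, and in the 20 bins with under 50% it was 58.6%.

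**Figure D4:**
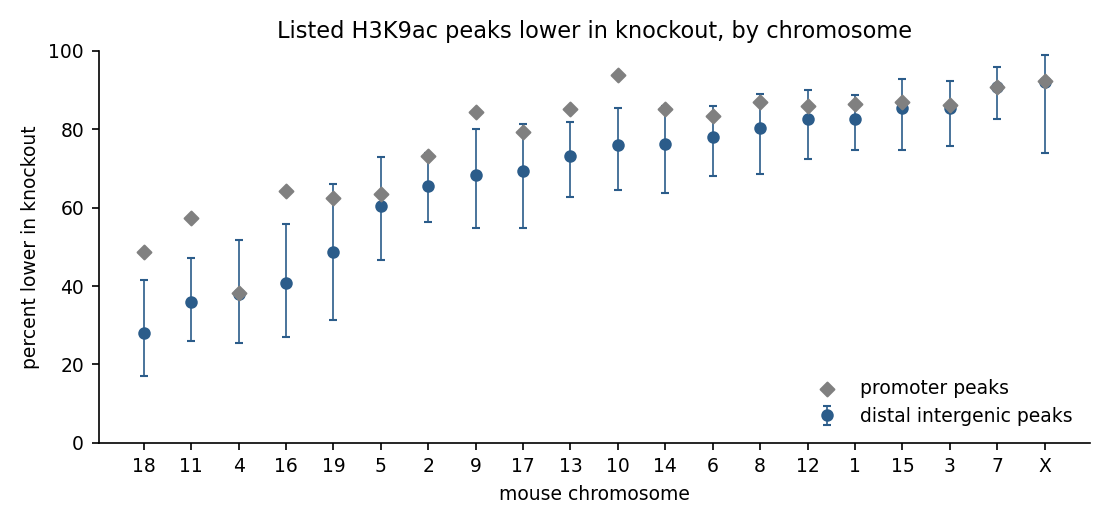
Percent of listed H3K9ac peaks lower in knockout (y axis) on each mouse chromosome (x axis, ordered by the distal share); circles are distal intergenic peaks with 95% exact binomial intervals, and diamonds are promoter peaks. Chromosomes 18, 11 and 4 lie lowest for distal peaks, at 28.1% to 37.9%, and 7 and X highest.

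The tables of the other marks also list selected peaks, so no overlap does not mean that a mark was absent. No region overlapped any of 5374 listed H3K9me3 peaks, a heterochromatin mark, nor did any of the 434 higher peaks, and 4 of all 8115 listed H3K9ac peaks did (0.0493%). A count of 0 of 985 allows a share of up to 0.305% by the rule of 3 counts, or 0.374% as the upper end of the exact binomial interval, for counting error only. Within 10 kb of an H3K9me3 peak lay 20 regions (2.03%) and 12 higher peaks (2.76%), beside 1.64% of all listed H3K9ac peaks. Of the 22 H3K9me3 peaks near the 20 regions, 8 were higher in knockout, as were 5 of the 13 near higher peaks. Of all listed H3K9me3 peaks 61.0% were higher in knockout. The authors' deposited table for H3K9me3 gives all 22 near the regions an FDR of 1. Listed H3K4me3 peaks, 469 in all, overlapped 2 regions (0.203%, beside 0.875% of all listed H3K9ac peaks), those at Mir148a and at chr15:103182250-103183584, annotated to Smug1 and nearest the coding gene Cbx5, which encodes a heterochromatin protein. In the authors' deposited table the Smug1 region had levels of 7.78 and 6.89 (FDR 0.124).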

How the data were processed

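H3K9ac, H3K9me3 and H3K4me3 ChIP-seq of 36 libraries was compared by the authors between genotypes, and only their comparison tables were used. Per the submitters' processing notes, CASAVA 1.4 and the build mm9 were used. For alignment, peak calling, normalisation and the test between genotypes, the method was not given in the sources used here. Per the file headers, the deposited levels are log2 mean normalised reads and log2 fold changes, with deposited p-values and FDRs from the authors' test. Gene positions in the table overlapped RefSeq GRCm38.p6 positions for 99.7% of 4988 matched genes, so coordinates were taken as GRCm38. Deposited widths exceed the span by 1 base, so starts or ends may be off by 1. Promoter and microRNA sequences are RefSeq's, and chromosome 18 promoters were not analysed here.

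Counts, medians, runs and overlaps (at least 1 bp) were computed with Python 3.11.15, pandas 2.3.3, numpy 2.4.6 and scipy 1.17.1, and the interval functions were tested on simulated data. With no value per library, no test was made. The members, the gene lists and the rules were chosen with earlier results of these data known. Named regions are the 12 of smallest p, the 12 of largest fold with levels of at least 4 (wild type) and 2 (knockout), 6 runs, up to 4 per list and the 10 genes with most regions, without predicted genes that have only a number as name, except in runs. The Mir148a account, the promoter windows and the microRNAs were chosen after their values were seen. A region of 1 list is not reported here.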

Additional observations from a re-analysis of the deposited data

How the results depend on the processing

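No paired analysis was possible because the deposited tables have no column per library. Leaving out a replicate and changing the normalisation were not run for the same reason. Motifs and base composition of whole regions were not run, since no genome was used here.

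Of 57 recomputed values, 29 stayed within the interval of the main value (counts: within 1.5 times) and 28 moved. The 985 regions became 425 at p under 0.01, 609 at a fold of at least 2 and 190 at an FDR under 0.05. The FDR share became 44.7% at p under 0.01 and 28.7% at a fold of at least 2, which follows from the filters. The lower share became 64.0% at a fold of at least 2, 72.2% without chromosomes 4, 18, X and Y, and 72.0% at an FDR under 0.05. The median fold became 2.41 (p), 2.57 (fold), 2.08 (mean level of at least 4) and 2.64 (FDR). The median distance became 15.7 kb (p), 15.6 kb (fold) and 22.9 kb (at least 10 kb from a start). The median width became 788 bp (p), 534 bp (fold), 769.5 bp (level) and 758.5 bp (FDR). The share in runs became 11.3% (p), 11.2% (fold), 3.16% (FDR) and 28.6% (joined within 50 kb). The share overlapping H3K9me3 or H3K4me3, 0.203%, became 0% (fold, FDR) and 3.15% (within 10 kb). The share with a promoter peak became 7.31% when only peaks within 1 kb counted. Chosen after seeing the data, assignment to the nearest protein-coding gene raised the list regions from 31 to 89, and leaving out the 3 regions at the lowest level left the median fold at 2.17.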
